A study of Mus musculus with 12 samples.

Results

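CpG sites were studied in which A follows the CpG on one strand and G follows it on the other. Such a site reads CCGA on one strand and TCGG on the opposite strand, and the strand with CCGA is called the A strand here. Members were taken from the GRCm38 sequence alone, without any methylation value. They were the autosomal CpGs of this kind with no more than 5 CpGs, itself included, within 100 bp on either side. This gave 2141144 sites, or 13.6% of the 15761900 isolated autosomal CpGs and part of 21867550 CpGs in all. Every listed position was a CG in the reference, A followed on the forward strand in 1070034 members, and 2 members with an unknown base within 3 bases were not used further.

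The cells were mouse embryonic stem cells without Dnmt1, Dnmt3a and Dnmt3b (TKO cells), rescued with a human enzyme carried by the pPyCAGIZ vector. Each of the 6 groups had 2 independently derived lines, selected in 50 µg/ml Zeocin for 10 days per the labels and then kept in 25 µg/ml Zeocin. The groups were DNMT3A WT, DNMT3B WT in set a, DNMT3B N656I, DNMT3B WT in set b, DNMT3B K777A and DNMT3B N779A. N656I changes the catalytic loop, while K777A and N779A change the target recognition domain (TRD) loop, which lies against the bases after the target cytosine. DNMT3A and N656I were both compared with set a, and K777A and N779A were both compared with set b, so the comparisons within a set share their control lines. No library of cells without an active enzyme was analysed here, and the amount of enzyme per line was not part of the files.

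DNMT3A and DNMT3B are the de novo methyltransferases, which place methyl groups on unmethylated CpGs during early development. DNMT1, the maintenance enzyme that copies methylation onto the new strand after replication, is missing from TKO cells, so it does not copy the methylation placed by the introduced enzyme. Both enzymes are known to prefer some bases around the CpG over others, and in DNMT3B the TRD loop residue K777 lies near the base directly after the CpG. At the sites studied here this base differs between the 2 strands. The deposited counts join both strands, so methylation of the A strand and of the G strand could not be told apart.

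The sequences that the results turn on are the 8-base contexts below, with 3 bases before and 3 bases after the CpG, written 5′ to 3′ on the A strand. Capitals mark the fixed CCGA, and the lower-case letters are the bases at −3, −2, +2 and +3, counted from the CpG. They are the contexts with the highest and lowest mean methylation in 4 groups, and those of N656I and K777A were picked after their values were seen.
Highest in DNMT3A: ggCCGAgc
Lowest in DNMT3A: ccCCGAtt
Highest in DNMT3B set a: cgCCGAgc
Lowest in DNMT3B set a: atCCGAtt
Highest in N656I: tgCCGAga
Lowest in N656I: atCCGAtt
Highest in K777A: ttCCGAag
Lowest in K777A: aaCCGAgt

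Reads on CpGs numbered 16224222 to 36029921 per line, with 3378 members at 10 or more reads in K777A line 1 and up to 69313 in N656I line 1. Reads fell on 1515768 members in at least 1 line, on 4526 members in all 12 lines and on 625374 members in none. DNMT3B set a line 2 stood apart, as reads covered 4.40% of its members (15.9% to 49.9% in the other lines) at a mean of 17.03 reads (2.29 to 5.22 in the other lines). At its members with 10 or more reads, 69.5% had no methylated read, against 33.3% in the other line of its group. The error of a group's level is the spread between its 2 lines, because PCR copies of 1 molecule cannot be recognised in these reads.

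The members were most methylated with DNMT3A, at an intermediate level with DNMT3B and N656I, lower with N779A and lowest with K777A. For each line, the methylated share of the reads was averaged over members with 10 or more reads. DNMT3A lines 1 and 2 had 38.1% and 37.8% (38.0% ± 0.171, SD, n = 2). It was 26.8% and 23.8% in the set a lines (25.3% ± 2.10) and 28.5% and 22.1% in the N656I lines (25.3% ± 4.52). The N656I lines lay on either side of both set a lines. In set b, the lines had 23.5% and 21.6% (22.5% ± 1.30). K777A gave 4.02% and 4.37% (4.20% ± 0.247) and N779A gave 15.9% and 17.6% (16.8% ± 1.22).

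DNMT3A exceeded set a by 12.7 percentage points, a ratio of 1.502, and the lines of the 2 groups did not overlap. K777A was 5.37-fold below set b, a difference of −18.3 points, and N779A was 1.34-fold below set b, a difference of −5.76 points, again without overlap. N656I and set a differed by −0.017 points with overlapping lines. With 2 lines against 2, the exact permutation test (two-sided) gave p = 0.33 for the first 3 differences, which is the smallest p that this design allows, and p = 1 for N656I.

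**Figure D1:**
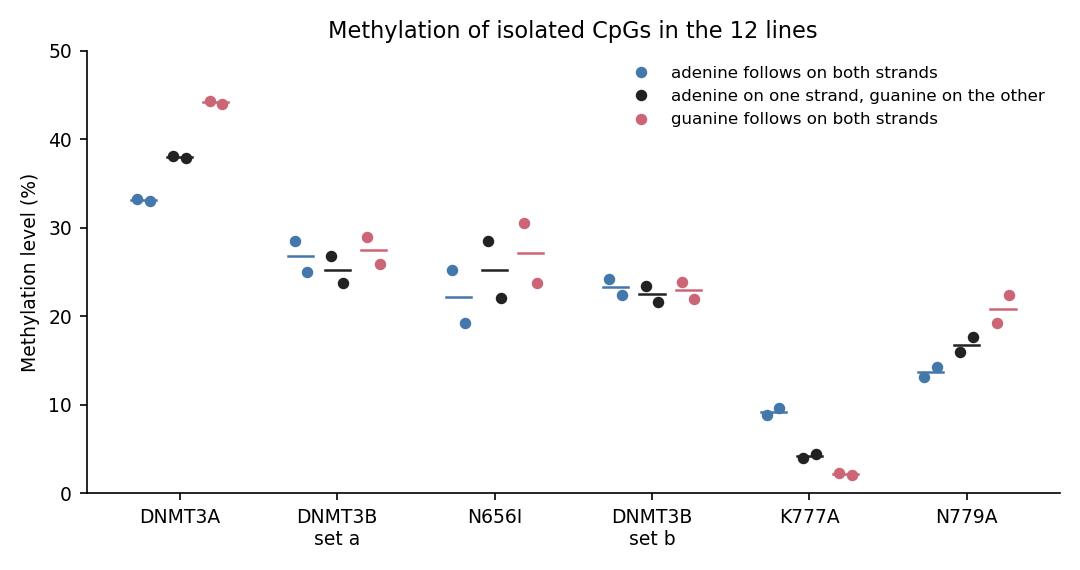
Methylation level (%, mean over sites with 10 or more reads) of isolated CpGs in each of the 6 groups, with 1 point per line and a bar at the mean of the 2 lines, for CpGs with adenine following on both strands, on 1 strand with guanine on the other, and guanine on both strands. The members (black) lie between the other classes in DNMT3A, N656I, K777A and N779A and below both in the DNMT3B wild-type lines.

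The standing of the members among isolated CpGs differed between the enzymes. There are 10 classes of CpG by the pair of bases that follow it on the 2 strands. The members ranked 9 of 10, from the highest level, in both DNMT3A lines and in both K777A lines. They ranked 3 of 10 in all set a, set b and N779A lines and 2 of 10 in the N656I lines. Relative to all isolated CpGs, the members had 0.925 and 0.922 times the level in the DNMT3A lines, and 0.534 and 0.496 times in the K777A lines. The ratio was 1.43 and 1.42 in set a, 1.48 and 1.49 in set b, 1.73 and 1.76 in N656I, and 1.23 and 1.21 in N779A. The ratios of the 2 lines of each group thus lay closer together than their levels did.

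Each member shares the base after the CpG with the class with A on both strands (1128150 isolated CpGs, which read TCGA) on one strand and with the class with G on both (1049257) on the other, so its level was set against these. The base before the CpG differs from both classes, so the midpoint of the classes is a reference and not a mean of the member's strands. In DNMT3A the member level minus that of the A/A class was 4.77 and 4.84 points in lines 1 and 2, and minus that of the G/G class it was −6.22 and −6.20 points. K777A showed the opposite order, at −4.81 and −5.22 points relative to A/A and 1.71 and 2.29 points relative to G/G. In N656I the A/A class had 25.2% and 19.2% and the G/G class 30.6% and 23.7%, with the members between them in each line. The N779A lines had the members 2.80 and 3.34 points above A/A and below G/G as well. In the 4 WT DNMT3B lines the members lay below both classes, at −1.74 and −1.24 points relative to A/A in set a and −0.777 and −0.718 points in set b. The G/G class reads CCGG, the site cut by MspI in the library preparation, and the authors clipped the first bases of each read. Where its counted CpGs lie in the fragments was not examined, and the part this plays was not tested.

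On the log2 odds scale, the member level minus the midpoint of the A/A and G/G classes was −0.14 ± 0.0071 in set a and −0.046 ± 0.0013 in set b (SD, n = 2). It was −0.034 ± 0.0021 in DNMT3A, 0.051 ± 0.0059 in N656I, −0.12 ± 0.097 in K777A and −0.018 ± 0.022 in N779A. The offsets of set a, set b and N656I were larger than the spread between the 2 lines of each group. Like that of K777A, these offsets kept their sign in the alternatives tried. That of DNMT3A turned to 0.031 when only sites covered in every line were used, and that of N779A was smaller than its spread. These offsets are given as descriptions and were not tested.

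Next, the bases 2 and 3 positions away were examined. The effect of a base is the log2 odds of the mean methylation of the members with that base minus the log2 odds of all members, calculated within a line. Base effects were fitted with limma across the 128 effects of all 10 classes and p-values were adjusted over all of them. The levels of the 4 bases of a position, weighted by their numbers of sites, average to the level of all members. The 16 effects of the members are therefore not independent. Of these 16, DNMT3A had 15 that differed from 0 (82.8% of all 128), set a 9 (64.8%), N656I 14 (82.8%), set b 12 (72.7%), K777A 14 (84.4%) and N779A 12 (69.5%). The members' share was near the share over all classes in each group.

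**Figure D2:**
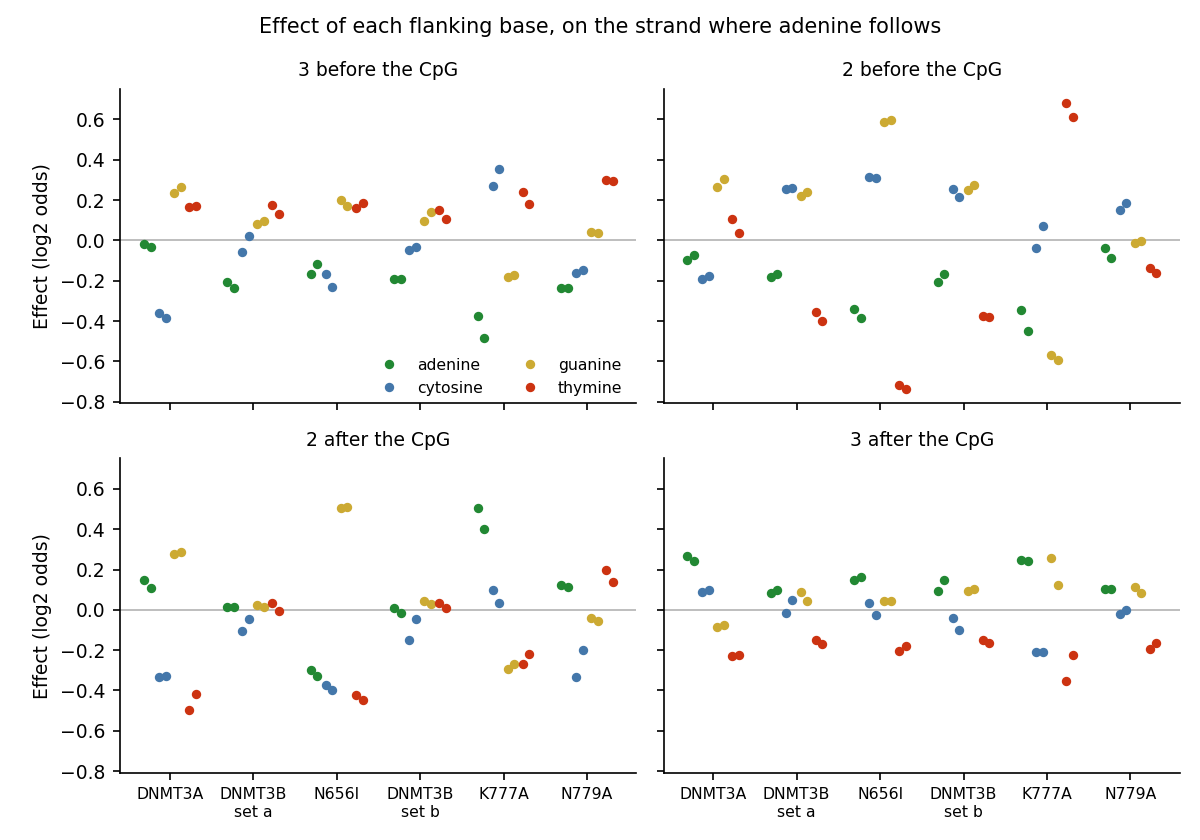
Effect (log2 odds, y axis) of adenine, cytosine, guanine and thymine at 3 and 2 bases before and 2 and 3 bases after the CpG, on the strand where adenine follows, with 1 point for each of the 12 lines. Thymine 2 before the CpG lies above 0 in the K777A lines and below 0 in all DNMT3B and N656I lines, while the bases 2 after the CpG are close to 0 in WT DNMT3B.

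Position −2, which precedes the C before the CpG, had the widest range of the 4 positions in both lines of set a, set b, N656I and K777A. Members with T at −2 had a level of 22.2% and 19.1% in set a, 19.1% and 17.5% in set b, and 19.5% and 14.5% in N656I, each below all members of the same line. In contrast, T at −2 marked the most methylated members of the K777A lines, with 6.26% and 6.52%. The DNMT3A lines had 39.8% and 38.4% with T at −2, slightly above their members as a whole, and the N779A lines had 14.7% and 16.1%, slightly below. The effects were −0.38 ± 0.023 (SE) in set a and in set b, −0.73 ± 0.023 in N656I, 0.65 ± 0.023 in K777A, 0.071 ± 0.023 in DNMT3A and −0.15 ± 0.023 in N779A. All 6 passed the threshold (limma, adjusted p between 2.58e-09 and 0.0161). The DNMT3A effect differed between its lines, at 0.106 in line 1 and 0.035 in line 2.

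G at −2 behaved in the reverse manner in K777A. Members with G at −2 had 2.69% and 2.94% in the K777A lines, the lowest of the 4 bases, but 26.7% and 25.0% in set b, where they were above all members. In N656I they had 37.4% and 29.98%, the highest of its bases. The DNMT3A lines also had their highest −2 level with G, at 42.5% and 42.9%. The effect of G was 0.28 in DNMT3A, 0.23 in set a, 0.59 in N656I, 0.26 in set b and −0.58 in K777A, all past the threshold, and −0.006 in N779A with adjusted p = 0.777. As a result, the highest level was 2.27-fold above the lowest over the −2 bases in K777A and 1.98-fold in N656I, but between 1.199-fold and 1.41-fold in the other groups.

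C at −2 lay at 30.3% and 27.2% in set a, its highest base at this position, and at 35.0% and 35.0% in DNMT3A, its lowest. Its effect was 0.26 ± 0.025 in set a and −0.18 ± 0.025 in DNMT3A. A at −2 was below 0 in every group, between −0.40 in K777A and −0.061 in N779A, and missed the threshold only in N779A (limma, adjusted p = 0.0584).

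Position +2 follows the A that comes after the CpG, and here the bases differed little in WT DNMT3B when averaged over the other positions. The highest of the 4 bases was 1.05-fold above the lowest in set a and 1.08-fold in set b. The 1 effect that passed the threshold in either set was C in set b, at −0.097 ± 0.035. It was −0.150 in line 1 and −0.045 in line 2. DNMT3A ranged from 30.4% and 31.3% with T to 42.7% and 42.6% with G, and N656I from 22.9% and 17.2% with T to 36.1% and 28.7% with G. The effect of G at +2 was 0.28 ± 0.016 in DNMT3A and 0.51 ± 0.016 in N656I, and the effect of T was −0.46 ± 0.024 and −0.44 ± 0.024. K777A had its highest level with A at +2, at 5.58% and 5.68% (effect 0.45 ± 0.025), and its lowest with G, at 3.28% and 3.66% (effect −0.28 ± 0.016). N779A had its highest level with T, at 17.8% and 19.1%, and its lowest with C, at 13.04% and 15.7%.

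On the log2 odds scale, position −3 had the widest range of the 4 positions in both N779A lines. It was 0.535 and 0.533 in lines 1 and 2, against 0.533 and 0.338 at +2. By fold range, line 1 was wider at +2, at 1.367-fold against 1.365-fold at −3. At −3, A was the lowest base in set a, set b, K777A and N779A, with effects of −0.22, −0.19, −0.43 and −0.24. DNMT3A instead had its lowest level with C at −3, at 32.4% and 31.8% (effect −0.37 ± 0.026), while C was the highest base of K777A, at 4.77% and 5.52% (effect 0.31 ± 0.026). T at −3 was above 0 in every group, between 0.13 in set b and 0.30 in N779A. The order at +3 was shared more widely, as T was the lowest base in all 12 lines, with effects between −0.29 in K777A and −0.16 in set b. A at +3 was above 0 in all groups, from 0.091 in set a to 0.25 in DNMT3A. These 18 effects of A at −3 and of T and A at +3 passed the threshold except A at −3 in DNMT3A, which was −0.025 ± 0.024 (limma, adjusted p = 0.356).

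A base before the CpG on the A strand and its complement after the CpG stand at the same place on the 2 strands, so their effects can be set side by side. A T that lies 2 before the CpG on the G strand appears as A at +2 on the A strand. In K777A, T at −2 had an effect of 0.65 on the A strand and 0.45 on the G strand, a difference of 0.17 and 0.21 in the 2 lines. G at −2 was above 0 in N656I on the A strand, at 0.59, but below 0 on the G strand, where it appears as C at +2, at −0.38. This difference was 0.96 and 0.99 in the N656I lines, and 0.60 and 0.63 in the DNMT3A lines. In K777A it had the opposite sign, at −0.67 and −0.63. At 3 bases from the CpG the differences between strands were at most 0.31 in size in any line.

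The groups were then compared within the same limma fit. Between DNMT3A and set a, 11 of the 16 effects differed (65.6% of all 128). The changes in DNMT3A minus set a were largest for T at +2 (−0.47 ± 0.034), T at −2 (0.45 ± 0.032), C at −2 (−0.44 ± 0.035) and C at −3 (−0.36 ± 0.037), with adjusted p between 2.86e-06 and 2.81e-05. G at −2 differed by 0.053 ± 0.026 (adjusted p = 0.0918), and passed the threshold with 1 read (0.045, adjusted p = 0.0046) and with 5 reads (0.063, adjusted p = 0.0012). T and C at −2 both passed the threshold with opposite signs in the 2 groups. For T this rests on a small DNMT3A effect, at 0.106 in line 1 and 0.035 in line 2.

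N656I differed from set a in 9 effects (51.6% of all 128), all of them at −3, −2 and +2. G rose by 0.49 ± 0.023 at +2 and by 0.36 ± 0.026 at −2. T fell by 0.45 at +2 and by 0.35 at −2, and A fell by 0.33 at +2, all with SE between 0.032 and 0.036. At +3, the 4 differences were between −0.031 and 0.064, with adjusted p between 0.0717 and 0.713. Thus the lines of N656I and set a overlapped in the overall level of the members, while 9 of their base effects differed. This share was near that over all classes.

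K777A differed from set b in 15 effects (71.1%). T at −2 rose by 1.02 ± 0.032 and G at −2 fell by 0.84 on the log2 odds scale (SE 0.026), both with adjusted p = 5.14e-09. A at +2 rose by 0.46 ± 0.036, C at −3 by 0.35 ± 0.037, and G fell by 0.32 at +2 and by 0.30 at −3. The remaining effect, G at +3, differed by 0.091 ± 0.040 (adjusted p = 0.0611). The same effects between the WT sets, which share no line, differed by at most 0.088 (C at +3), with a median of 0.023 over the 16.

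N779A differed from set b in 10 effects (37.5%), with changes between −0.27 and 0.23. The largest were G at −2 (−0.27 ± 0.026), T at −2 (0.23 ± 0.032), T at −3 (0.17 ± 0.031), C at +2 (−0.17 ± 0.049) and T at +2 (0.15 ± 0.034), and none of the effects at +3 passed the threshold. This count rested on the lines used, as it was 3 without N779A line 1, 6 without N779A line 2, 6 without set b line 1 and 5 without set b line 2. G and T at −2 passed the threshold in each of these 4 fits.

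The classes with the same base on both strands give the −2 effects a comparison, with both strands folded together and differences to the members not tested. T at −2 had an effect of 0.31 in K777A at A/A sites and 0.59 at G/G sites. In N656I it was −0.21 and −0.32, in set a −0.021 (adjusted p = 0.441) and −0.079, and in DNMT3A 0.19 and 0.21. G at −2 was −0.0086 (adjusted p = 0.679) at A/A sites and −0.41 at G/G sites of the K777A lines. At A/A sites it was −0.16 in DNMT3A, −0.105 in set a, −0.20 in N656I and −0.099 in set b, all past the threshold. These have the opposite sign to the members. At G/G sites it was 0.33 in N656I, past the threshold. There it was 0.049 in DNMT3A, 0.056 in set a and 0.034 in set b, which did not pass.

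Combining the bases at −2 and +2 widened the range of levels. In K777A, members with T at −2 and A at +2 had 8.50% and 7.83%, and those with G at both positions had 2.25% and 2.18%, a 3.69-fold range over the 16 pairs. N656I had the reverse extreme, with 43.9% and 35.9% for G at both positions and 14.3% and 11.02% for T at both, a 3.15-fold range. In DNMT3A the pairs ran from 26.1% and 27.8% for C and T to 47.9% and 47.8% for G and G, a 1.77-fold range. Set a and set b shared their highest pair, G and T (32.7% and 28.4%, and 30.4% and 27.5%), and their lowest pair, T and C (19.9% and 18.8%, and 15.3% and 15.7%). N779A ran from 10.1% and 11.8% for T and C to 20.98% and 20.97% for C and T.

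By their median, the pairs were close to the sum of their single effects, but single pairs departed from it. After fitting the bases at −2 and +2 as additive on the log2 odds scale, the median residual of the 16 pairs was between 0.026 in DNMT3A and 0.079 in N656I in size. T at −2 with A at +2 lay above the sum in both WT sets, by 0.22 and 0.21 in the set a lines and by 0.17 and 0.30 in the set b lines. In N779A, T with C lay below the sum by −0.21 and −0.22. The residuals named for the WT sets were larger than any single +2 effect of these sets. There the order at +2 changed with the base at −2. In set b with T at −2, A at +2 was highest at 20.7% and C lowest at 15.5%. With G at −2, T at +2 was highest at 29.0% and A lowest at 23.7% (means of 2 lines).

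**Figure D3:**
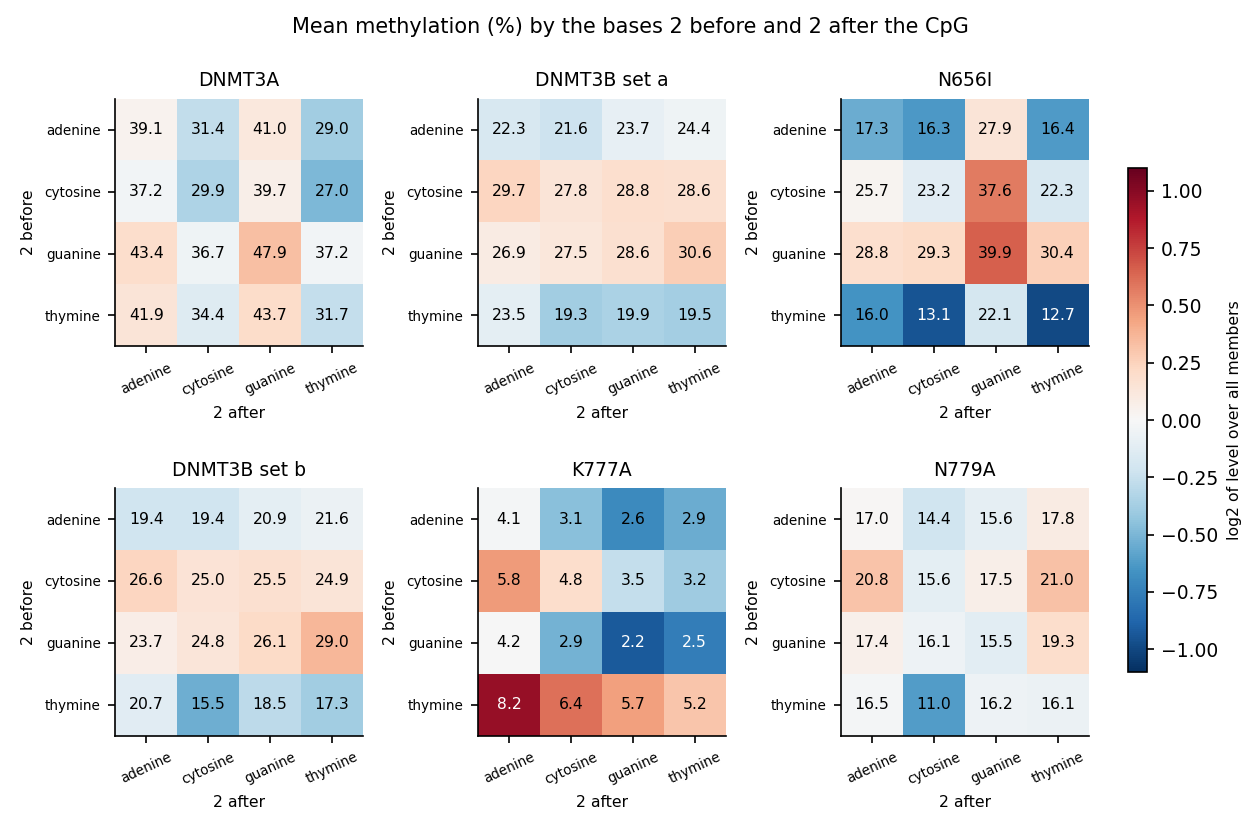
Mean methylation (%, mean of 2 lines, printed in each cell) of members by the base 2 before (rows) and 2 after (columns) the CpG, with colour for the log2 ratio to all members of the group. K777A runs from 2.21% with guanine at both places to 8.17% with thymine before and adenine after, and N656I from 12.7% with thymine at both to 39.9% with guanine at both.

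At the full 8-base resolution, the members fall into contexts with 134 to 51310 sites each. As few contexts had enough sites with 10 reads, every covered site was used here, and 254 contexts had at least 20 covered sites in every line. The other 2, which were not tested, were cgCCGAcg with 134 sites and gtCCGAcg with 513. The 5th and the 95th percentile of the contexts were 24.3% and 49.9% in DNMT3A line 1 and 17.4% and 34.4% in set a line 1. In N656I line 1 the range between them was 13.2% to 43.7%, in set b line 1 14.7% to 31.1%, in K777A line 1 1.74% to 6.51%, and in N779A line 1 9.15% to 20.8%. Between the 2 lines of a group, Pearson's r across the 254 contexts was 0.983 in N656I, 0.971 in DNMT3A, 0.959 in K777A, 0.948 in set b, 0.934 in N779A and 0.800 in set a. The contexts of a line share its library and depth and are not independent replicates.

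The DNMT3A lines methylated ggCCGAgc to 52.3% and 53.7%, ggCCGAga to 52.5% and 52.5%, and gtCCGAga to 51.2% and 52.8%. All 3 have G at +2. Their least methylated contexts were ccCCGAtt (19.5% and 18.9%), caCCGAtt (20.2% and 21.3%) and ccCCGAct (21.5% and 21.7%), which share C at −3 and T at +3. In set a, the highest were cgCCGAgc (38.6% and 39.8%), tgCCGAcg (31.4% and 41.7%) and cgCCGAta (34.0% and 38.3%), all with G at −2. The places of tgCCGAcg and cgCCGAta rest on set a line 2, with a minimum of 36 and 24 covered sites per line. In set a line 1 the contexts tgCCGAtc (37.9%), tgCCGAgc (37.2%) and cgCCGAtg (36.8%) were above both. The lowest were atCCGAtt (13.8% and 12.4%), atCCGAcc (16.3% and 11.8%) and atCCGAgt (14.2% and 14.7%), all with A at −3 and T at −2. In K777A, ttCCGAag had 10.5% and 11.4% and aaCCGAgt had 1.17% and 1.13%, so the extremes were 9.54-fold apart. They were 5.70-fold apart in N656I, 3.498-fold in N779A, 3.09-fold in set b, 2.99-fold in set a and 2.76-fold in DNMT3A.

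Contexts were compared between groups relative to all 2022 contexts of isolated CpGs, with each line centred on its median context. Changes, counts and medians are those of the centred fit unless stated otherwise. The share of all contexts called was calculated for the centred fit only, so counts without centring are given with medians alone. In DNMT3A relative to set a, 236 member contexts were lower (36.0% of all contexts) and 1 was higher (36.5% of all), with a median change of −0.99, against 0.037 over all contexts. Without centring, the direction turned, as 185 were higher and 6 lower with a median of 0.82, since all contexts together rose by a median of 1.85. Thus the members were higher with DNMT3A than with DNMT3B in absolute level and lower relative to the median context. This was not particular to the members, as the A/A class had 26.8% in set a and 33.1% in DNMT3A and the G/G class 27.4% and 44.2%, against 17.7% and 41.1% over all isolated CpGs (means of 2 lines at 10 or more reads).

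Among the contexts lower in DNMT3A, the largest changes were in ccCCGAct (21.5% and 21.7% against 30.5% and 29.3% in set a, change −2.45 ± 0.058), cgCCGAtg (27.0% and 25.6% against 36.8% and 32.8%, −2.40 ± 0.13) and ccCCGAtt (−2.33 ± 0.11), with limma adjusted p at most 5.36e-07. The single higher context was ttCCGAgt, with 46.2% and 45.1% against 18.03% and 15.8% (0.23 ± 0.086, limma adjusted p = 0.0355). Its call was lost without DNMT3A line 1, without DNMT3A line 2, without set a line 2, with log2 of the level and with only these 4 lines fitted. With set b in place of set a the change was 0.042 (limma adjusted p = 0.675). By the base at −2, the median change was −1.46 for C and −0.55 for T.

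For N656I relative to set a, 143 member contexts were higher (33.4% of all contexts) and 19 lower (30.8%), with a median change of 0.35. Without centring, 31 were higher and 89 lower, with a median of −0.27 and −0.61 over all contexts. In the centred fit, 61 of 63 contexts with G at −2 and 17 of 63 with T at −2 were higher (limma). The largest rises were in cgCCGAgt (41.1% and 33.9% against 26.1% and 21.7%, change 1.54 ± 0.12), tgCCGAga (50.6% and 41.9% against 34.0% and 31.7%, 1.44 ± 0.062) and ggCCGAga (1.39 ± 0.064). The largest falls were in ctCCGAcg (12.4% and 10.3% against 21.4% and 23.8%, −0.58 ± 0.14), aaCCGAtt (−0.57 ± 0.082) and caCCGAtt (−0.44 ± 0.094), with limma adjusted p at most 0.00495. The call of ctCCGAcg was lost with summed reads (−0.22, limma adjusted p = 0.278), in the quasi-binomial regression (−0.26, adjusted p = 0.255) and with 5 reads (limma adjusted p = 0.115). That of aaCCGAtt was lost with 5 reads (limma adjusted p = 0.0581).

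K777A had lower values than set b in 252 of 254 member contexts (36.3% of all contexts) and higher values in 0 (43.6% of all), with a median change of −1.86. No higher context had an unadjusted p under 0.05 in limma or in the quasi-binomial regression. Without centring, all 254 were lower with a median of −2.88, against −0.85 over all contexts. The largest falls were in ggCCGAgt (1.19% and 1.46% against 23.3% and 20.4%, −3.35 ± 0.099), ggCCGAgc (1.69% and 1.99% against 27.6% and 27.0%, −3.30 ± 0.070) and agCCGAgc (−3.27 ± 0.098), all with G at −2 and at +2 (limma, adjusted p at most 4.73e-09). The median change was −2.65 with G at −2 and −0.79 with T at −2. The fall in K777A was not particular to the members. The G/G class had 22.9% in set b and 2.20% in K777A, and the A/A class 23.3% and 9.21%. All isolated CpGs had 15.2% and 8.17% (means of 2 lines at 10 or more reads).

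N779A was lower than set b in 164 member contexts (30.3% of all contexts) and higher in 5 (23.8%), with a median change of −0.40. Without centring these numbers were 129 and 0. The largest falls were in cgCCGAca (13.2% and 13.9% against 30.9% and 34.0%, −1.46 ± 0.26), cgCCGAgc (16.1% and 15.0% against 36.2% and 33.4%, −1.39 ± 0.23) and ggCCGAcc (−1.20 ± 0.14), with G at −2 in each. With the other WT lines, cgCCGAca moved to −0.58 and its call was lost (limma adjusted p = 0.0819). Those that rose most were ttCCGAtt (13.5% and 16.03% against 12.7% and 12.4%, 0.41 ± 0.084), taCCGAtc (0.38 ± 0.080) and ttCCGAtc (0.37 ± 0.10), with limma adjusted p at most 0.0135. None of these 3 passed the threshold without centring or with 5 reads (limma adjusted p between 0.0805 and 0.154 with 5 reads). The call of ttCCGAtc was also lost without set b line 1 and without N779A line 1, and that of taCCGAtc, at 0.18, with the other WT lines (limma adjusted p = 0.0905).

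**Figure D4:**
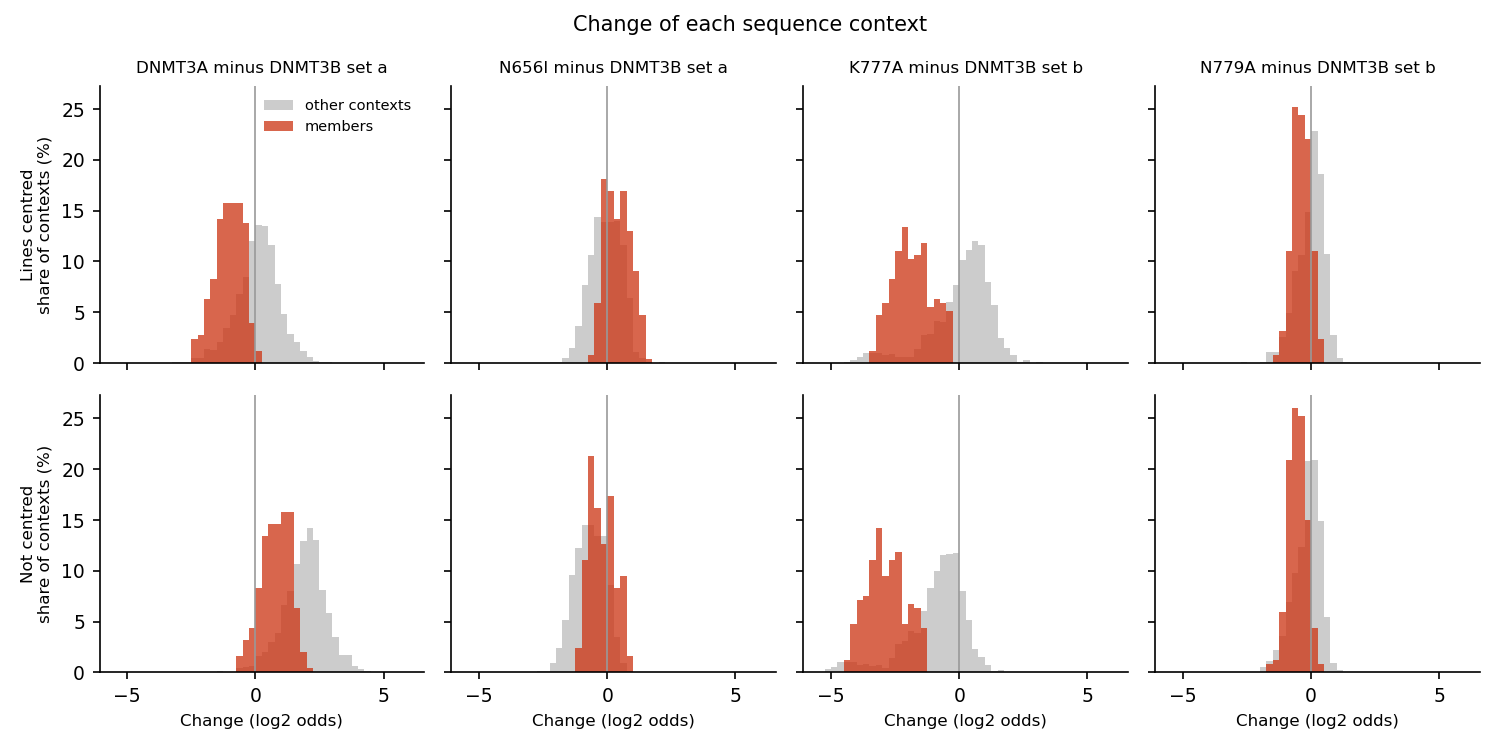
Share of contexts (%, y axis) by their change in log2 odds (x axis) in the 4 comparisons, for the 254 member contexts (red) and the other contexts of isolated CpGs (grey), with lines centred on the median context (upper row) and not centred (lower row). The members lie to the left of the other contexts for DNMT3A, K777A and N779A, and in K777A all 254 lie below 0 in both rows.

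To show single members, 1 site was taken for each highest and lowest context of DNMT3A and set a, as the site outside repeats with 10 or more reads in the most lines. Sequences are written on the A strand from GRCm38, with CCGA in capitals, and genes are those of GENCODE M21.
Highest in DNMT3A, chr11:113955444-113955473, minus strand, intron of Sdk2: ggctaaggggtggCCGAgcccactggagct
Lowest in DNMT3A, chr8:84419970-84419999, plus strand, intron of Cacna1a: gagacagaaggccCCGAtttaactatggtt
Highest in DNMT3B set a, chr3:137888276-137888305, plus strand, intron of Dnajb14: ggcagtggagccgCCGAgctctgtgtcatt
Lowest in DNMT3B set a, chr8:45158015-45158044, plus strand, intron of the lincRNA gene Gm30504: tacatagctacatCCGAttggttatgatct

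At some of these sites, the lines of a group differed widely. The Sdk2 site had 10 methylated of 19 reads in DNMT3A line 1 (52.6%, exact 95% interval 28.9% to 75.55%) but 0 of 10 in line 2, where the interval reaches 30.8%. N656I gave 8 of 13 reads in line 1 and 0 of 21 in line 2, where the interval reaches 16.1%. The Cacna1a site had 3 of 14 and 14 of 20 reads methylated in the DNMT3A lines, and 3 of 10 and 13 of 13 in the set a lines. At the Dnajb14 site, set a line 1 had 1 of 7 and line 2 had 11 of 11 reads methylated. DNMT3A line 1 had 0 of 13 there, which allows up to 24.7%, and the N656I lines had 1 of 13 and 0 of 11. The Gm30504 site had 0 methylated reads in each of the 6 lines with 10 or more reads, which were 1 of DNMT3A, both of N656I, both of set b and 1 of K777A, at 10 to 17 reads with upper bounds between 19.5% and 30.8%. DNMT3A line 1 had 5 of 7 reads methylated there, set a line 1 had 0 of 2, and set a line 2 had no reads. Intervals cover counting error only. These sites illustrate the unit of measurement and carry no comparison.

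Finally, the members were described by where they lie. Within 1 kb of a gene start were 4.16% of the members, in other exons 5.80%, in other introns 44.0% and outside genes 46.1%. Members near gene starts had the lowest level of these 4 places in all 12 lines. In the DNMT3A lines they had 28.1% and 29.3%, against 39.7% and 39.5% in introns, and in the K777A lines 3.01% and 3.45% against 4.17% and 4.70%. Set a had 20.2% and 18.3% near gene starts and 27.9% and 24.8% in introns. Soft-masked repeats held 25.4% of the members and had similar levels, for example 37.7% and 36.9% in DNMT3A against 38.1% and 38.0% outside repeats. The number of CpGs within 100 bp also made little difference up to the limit of 5, with group means from 36.9% to 38.6% in DNMT3A and from 3.86% to 4.37% in K777A. Members with A on the forward and on the reverse strand of the genome had 38.2% and 37.7% in DNMT3A and 25.4% and 25.2% in set a (means of 2 lines).

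**Figure D5:**
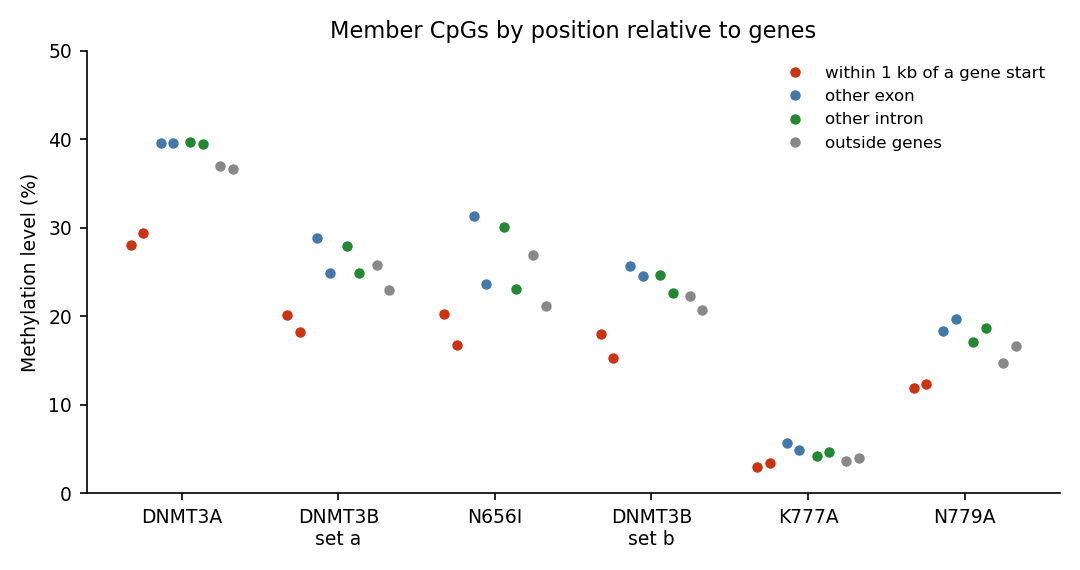
Methylation level (%, members with 10 or more reads) by position relative to GENCODE M21 genes, with 1 point for each of the 12 lines. Members within 1 kb of a gene start lie below those in other exons, other introns and outside genes in every line, for example 28.1% and 29.3% in the DNMT3A lines.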

How the data were processed

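Enhanced reduced representation bisulfite sequencing (eRRBS) of DNA cut with MspI, BfaI and MseI was used in 12 lines. The authors trimmed read pairs with cutadapt (version 1.12 in the submitters' processing notes), aligned them with Bismark 0.18.1 and Bowtie 1.2 to mm10 (GRCm38), discarded pairs rich in methylated non-CpG cytosines and joined both strands. The deposited values are raw counts of methylated reads and of all reads per CpG and line, not normalized, and the authors did not pool lines in them. The 2 WT DNMT3B sets were told apart by the letter in the replicate label, and set b was matched to K777A and N779A because their library names share a prefix, which no label explains.

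Levels used sites with 10 or more reads, and contexts every covered site with 20 sites per line. Base effects and contexts were fitted with limma 3.58.1 (R 4.3.3, trend, 6 groups, 12 lines) on log2 odds, adding 0.5 over the site number for contexts, and Benjamini-Hochberg adjusted p under 0.05 was called. Context lines were centred on their median, and reverse complements were merged. The contexts named were the 3 largest changes in each direction past the threshold in each comparison, and the 3 highest and lowest in DNMT3A and set a. Intervals are exact binomial at 95%. Calculations used Python 3.11.15 with numpy 2.4.6, pandas 2.3.3 and scipy 1.17.1. In a simulation of DNMT3A against set a over 2022 contexts, 180 of 200 contexts with a log2 change of 1 were called, with 18 false calls among 1822. All simulated lines had the set a levels apart from the 200 changes in DNMT3A. Their levels differed otherwise only by drawing each site at random as methylated or not. The data had 738 contexts called higher and 727 lower, so the simulated counts do not give the error rate of that comparison. The members, lists and tests were chosen with earlier results of these data known. The alternatives tried were other read minimums, summed reads, sites covered in every line, sites of high depth or in repeats left out, fewer CpGs nearby, equal context weights, log2 of the level, a quasi-binomial regression, no centring, 100 sites per context, only the 4 lines of a comparison, the other WT lines, a replicate term and each line left out. Non-CpG sites were not analysed here.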

Additional observations from a re-analysis of the deposited data

Results flagged for a closer look

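Some base effects had opposite signs in the 2 groups of a comparison, each past the threshold in both groups and in the test of the difference (limma, adjusted over 128 effects). In DNMT3A minus DNMT3B set a these were T at −2, at 0.45, and C at −2, at −0.44. The DNMT3A effect of T at −2 was small, at 0.106 in line 1 and 0.035 in line 2. In K777A minus DNMT3B set b they were T at −2, at 1.02, G at −2, at −0.84, and G at −3, at −0.30. The levels of the bases of 1 position, weighted by their sites, average to the level of all members, so effects at the same position are not separate results.

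Isolated CpGs of the same kind on chromosome X were not part of the comparisons, and reads there were methylated in every group. The mean level of the 2 lines was 33.1% in DNMT3A, 22.1% in DNMT3B set a, 23.4% in N656I, 16.4% in DNMT3B set b, 3.96% in K777A and 15.9% in N779A. These rest on 15 sites with 10 or more reads in K777A line 1 and on at most 1095 sites in any line. Each mean was below the autosomal mean of its group, but K777A line 1, at 4.67%, and N656I line 2, at 22.6%, were above their own autosomal levels of 4.02% and 22.1%. The difference was not tested.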

How the results depend on the processing

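Of the 4 differences in member level, the alternatives moved DNMT3A minus set a from 12.7 to 10.1 percentage points with 20 reads and to 15.4 with the other WT lines. With the other WT lines, K777A moved to −21.1 and N779A to −8.49 points. With each line left out in turn, the ranges were 11.2 to 14.2 for DNMT3A, −3.22 to 3.18 for N656I, −19.3 to −17.4 for K777A and −6.68 to −4.83 for N779A.

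The offset of the members from the midpoint of the symmetric classes is given next in the order DNMT3A, set a, N656I and set b. It was −0.021, −0.10, 0.068 and −0.073 with 1 read, −0.025, −0.12, 0.061 and −0.070 with 5 reads, and −0.088, −0.080, 0.028 and −0.027 with 20 reads. It was 0.031, −0.105, 0.078 and −0.062 on sites covered in every line, where DNMT3A changed sign, and −0.012, −0.101, 0.041 and −0.035 with log2 of the level. Summed reads gave −0.125 in set a and −0.042 in set b. Leaving out soft-masked sequence gave −0.026 in DNMT3A and −0.041 in set b, and leaving out the deepest sites −0.047 in set b. With 20 reads, K777A had −0.26 and N779A 0.15, and N779A had 0.035 on sites covered in every line. With a line left out, the ranges were −0.035 to −0.032 in DNMT3A, −0.14 to −0.13 in set a, 0.047 to 0.056 in N656I, −0.047 to −0.045 in set b, −0.19 to −0.055 in K777A and −0.034 to −0.0030 in N779A.

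Counts of base effects past the threshold were lowest, of the alternatives run, with a minimum of 20 reads. With 20 reads, which left 62 members in K777A line 1, limma called 0 of 16 in DNMT3A, 0 in set a, 3 in N656I, 0 in set b, 9 in K777A and 1 in N779A, and 3, 2, 8, 1, 10 and 4 had an unadjusted p under 0.05. Between groups it called 0 for DNMT3A, 1 for N656I, 5 for K777A and 0 for N779A, with 3, 1, 7 and 2 unadjusted. Weighting contexts equally gave 6 for K777A and 6 for N779A, and leaving out soft-masked sequence gave 6 for N779A, and the cause was not tested. With a line left out, where the lone line is taken to vary like the other groups, the ranges within groups (DNMT3A, set a, N656I, set b, K777A and N779A) were 12 to 12, 9 to 9, 14 to 14, 10 to 10, 14 to 15 and 10 to 11, and between groups (DNMT3A, N656I, K777A and N779A) 9 to 11, 8 to 9, 13 to 16 and 3 to 6. Counts of contexts stayed within 1.5 times of those reported in all 56 alternatives, although without centring most calls were higher for DNMT3A and lower for N656I, the opposite of the centred fit. For contexts, leaving out a line gave 224 to 238, 140 to 174, 250 to 252 and 134 to 144.

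Replicate numbers did not pair the lines, as the correlation of same-numbered deviations was between −0.022 and 0.0059. With a replicate block, 11, 9, 15 and 10 base effects and 237, 160, 252 and 173 contexts were called.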

Other observations

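Autosomal CpGs with A following on one strand and G on the other but with more CpGs nearby were outside the definition of the members. With 6 to 11 CpGs within 100 bp (400398 sites), the levels were 28.3% and 29.6% in DNMT3A, 21.3% and 20.2% in DNMT3B set a, 22.4% and 16.96% in N656I, 19.4% and 17.7% in DNMT3B set b, 2.81% and 3.37% in K777A, and the N779A lines had 12.7% and 13.4%. At 12 or more (134839 sites), all 12 lines lay between 0.617% and 2.58%. In this densest range the DNMT3A lines had 1.97% and 2.30% and the DNMT3B set a lines 2.04% and 2.58%, so that DNMT3A was no longer the higher of these groups. The K777A lines had 0.802% and 0.617% there and were the lowest, as at isolated sites. These are values per line without a test.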
